A study of Mus musculus with 45 samples.

Results

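The genes described are the mitochondrial carriers of the Slc25 family, taken as every listed symbol made of Slc25a and a number. They were 44 of the 23284 genes listed for each of 6 RNA-seq libraries of mouse heart. Adult heart had 2 libraries, and embryonic heart (E12.5), E12.5 heart labelled Gata4 KO (the KO-labelled library), heart labelled Banding and heart labelled Sham had 1 each. Banding constricts a large artery to raise the load on the heart, and sham is its control operation. The labels used here give no age for the Banding and Sham hearts. For all samples the labels mention the alleles Gata4fbio, Rosa26BirA, cTNTcre and Gata4flox, and they do not say which RNA library carries which. cTNTcre is a Cre recombinase driven by the cardiac troponin T promoter, which is active in cardiomyocytes. RNA was pooled before poly(A) selection, per the labels' protocols, so a library is a pool and not an animal. The other 39 samples of the 45 are chromatin libraries and were not analysed here.

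Slc25 proteins are small carriers, nearly all in the inner mitochondrial membrane, that exchange metabolites, nucleotides, phosphate, cofactors and ions between the cytosol and the matrix. Cardiac muscle depends on them to export ATP in exchange for ADP, to import phosphate for ATP synthase, to bring in acylcarnitines for fatty acid oxidation and to carry the malate-aspartate shuttle, which moves reducing equivalents from glycolysis into mitochondria. Several substrates are served by paralogues of which one is typical of striated muscle or of red cell precursors.

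Depth recovered from the files was between 12086929 and 21056784 mapped reads per library. Reads on listed genes were 55.6% and 58.0% of mapped reads in Sham and Banding, against 75.9% to 83.9% in the other 4 libraries. Rn45s, the precursor of ribosomal RNA, was at 12.94 in Sham and 12.96 in Banding against 6.21 to 8.94 elsewhere, on the log2(FPKM + 1) scale that is used for all levels. FPKM, fragments per kilobase of transcript, is scaled to all mapped reads. Gata4 itself was 5.93 in the E12.5 library and 6.13 in the KO-labelled library, so the gene as a whole showed no loss, and 1 value per gene cannot show a deletion of some of its exons. That library is called only by its label throughout. Summed FPKM of 5 cardiomyocyte markers (Myh6, Tnnt2, Actn2, Ryr2 and Ttn), each above 0 in every library, was 23542 and 23846 in adult, 4645 at E12.5, 3071 in the KO-labelled library, 17621 in Sham and 14279 in Banding. In such bulk samples, fewer cells of a type and less RNA per cell cannot be told apart.

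Promoter sequence is shown for the paralogues Slc25a4 and Slc25a5, which code for the main ADP/ATP carriers and of which the first rose in adult and the second did not pass the test, and for Slc25a34, the carrier with the largest adult excess. RefSeq windows of GRCm38.p6, from 250 bases before to 50 bases after the annotated start, were found for 34 of the 44 members. They are written 5′ to 3′ on the strand of the gene. The windows lie at chr8:46211013-46211312 on the minus strand for Slc25a4, chrX:36795347-36795646 on the plus strand for Slc25a5 and chr4:141623785-141624084 on the minus strand for Slc25a34.
Slc25a4: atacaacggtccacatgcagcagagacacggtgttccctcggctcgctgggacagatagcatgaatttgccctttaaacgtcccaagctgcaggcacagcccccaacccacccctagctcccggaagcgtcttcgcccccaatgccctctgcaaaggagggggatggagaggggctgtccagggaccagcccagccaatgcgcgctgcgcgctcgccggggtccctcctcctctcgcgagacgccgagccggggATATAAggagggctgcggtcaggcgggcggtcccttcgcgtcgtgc
Slc25a5: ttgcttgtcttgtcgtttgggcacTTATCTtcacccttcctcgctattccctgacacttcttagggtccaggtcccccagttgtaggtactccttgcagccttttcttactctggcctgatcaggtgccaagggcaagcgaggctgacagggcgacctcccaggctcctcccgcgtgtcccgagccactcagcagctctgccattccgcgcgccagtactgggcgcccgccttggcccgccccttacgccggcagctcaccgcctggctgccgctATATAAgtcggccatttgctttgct
Slc25a34: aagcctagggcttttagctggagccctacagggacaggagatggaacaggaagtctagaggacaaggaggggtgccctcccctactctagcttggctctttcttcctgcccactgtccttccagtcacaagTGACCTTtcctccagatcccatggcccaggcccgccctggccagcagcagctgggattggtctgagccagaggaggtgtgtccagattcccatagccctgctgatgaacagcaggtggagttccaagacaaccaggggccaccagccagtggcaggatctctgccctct
Capitals mark matches to 3 motifs, searched on both strands. The letters ATATAA, a run typical of core promoters, begin at base 255 of the Slc25a4 window and at base 276 of the Slc25a5 window, which is inside the transcribed end of each window. The run was found in these 2 of 34 carriers, 5.88%, against 11.3% of 27025 genes with a window. AGATAA, a sequence of the kind GATA factors bind, lies on the opposite strand from base 25 of the Slc25a5 window and in 2 of 34 carriers, the other being Slc25a22, against 12.7% of all genes. The run AAGGTCA, bound by nuclear receptors, lies on the opposite strand from base 132 of the Slc25a34 window, in 1 of 34 carriers (2.94%) against 5.38% of all genes. The 3 motifs do not overlap one another here. The site of estrogen-related receptors, searched as TCAAGGTCA, which contains the nuclear receptor run, was in 0 of 34 carriers against 0.466% of all genes. The core of the NRF1 site, searched as CGCATGCG, was in 0 of 34 against 2.07%.

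Slc25a4 dominated the family in every library. It made up 82.6% and 83.2% of the summed FPKM of all 44 carriers in the adult libraries, 64.0% at E12.5, 62.7% in the KO-labelled library, 93.5% in Sham and 93.9% in Banding. Slc25a3, the phosphate carrier, was second in each, at 4.3% and 4.0% in adult, 16.5% at E12.5, 16.0% in the KO-labelled library, 1.4% in Sham and 1.3% in Banding. Next came Slc25a5, between 1.0% in Sham and 5.0% at E12.5. Among all listed genes, Slc25a4 ranked 9 and 11 by FPKM in adult, 19 at E12.5, 20 in the KO-labelled library, 5 in Sham and 6 in Banding. Shares within a library do not depend on how libraries are scaled to each other. The embryonic libraries thus had the more even family, and the operated hearts the one most given over to Slc25a4. The operated hearts also had the lowest share of reads on listed genes, 55.6% in Sham and 58.0% in Banding. The part of this in the family shares was not tested. Leaving out Slc25a4, the other 43 carriers together held 0.22% and 0.2% of all FPKM in adult, 0.28% at E12.5, 0.25% in the KO-labelled library, 0.14% in Sham and 0.13% in Banding. Of the 44 members, 27 reached 5 FPKM in at least 1 library, 17 did not, and Slc25a48 had 0 reads in all 6.

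**Figure D1:**
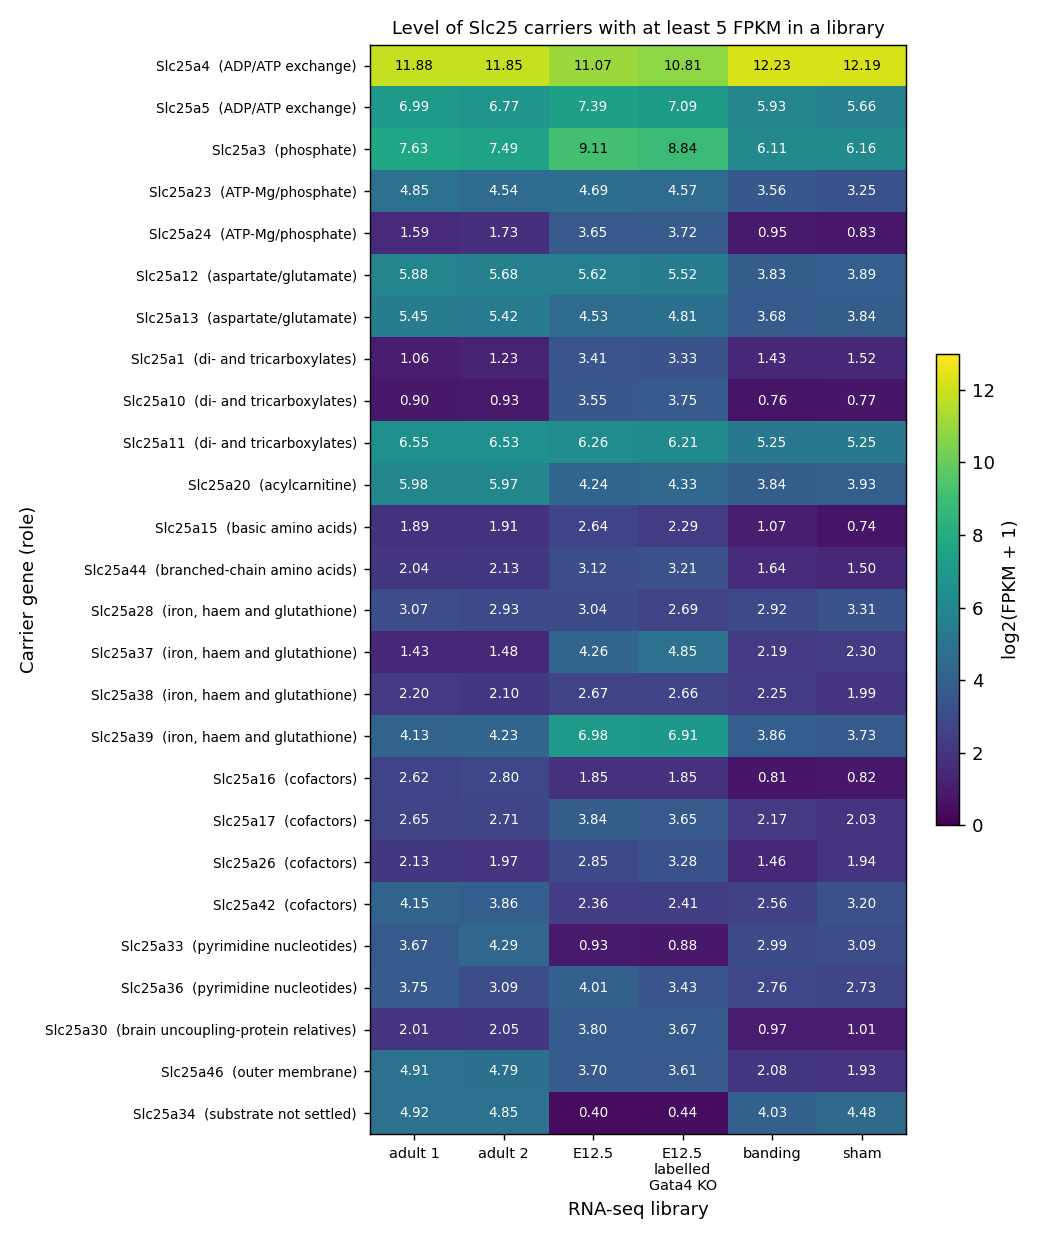
Heat map of log2(FPKM + 1) for 26 carriers with at least 5 FPKM in at least 1 library (rows, ordered by role) in the 6 libraries (columns), with each value printed in its cell. Slc25a4 is highest in every column, from 10.81 to 12.23, and Slc25a34 stands at 0.40 and 0.44 in the E12.5 columns against 4.03 to 4.92 in the others.

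Between E12.5 and adult the family moved in both directions. Of 44 members, 37 reached 1 FPKM in an adult or the E12.5 library and were tested, of which 11 rose in adult, 14 fell and 12 did not pass (limma on the log2 values, Benjamini-Hochberg adjusted p under 0.05). Over all 12658 genes tested, 23.4% rose and 48.4% fell, against 29.7% and 37.8% of the tested carriers. The median difference was -0.04 for the carriers and -0.51 for all genes. By a second rule without a test, a 2-fold difference with 5 FPKM or more on the higher side, 6 of 27 measured carriers were higher in adult and 9 lower, where 18.4% and 41.1% of 8802 genes were. The p-values measure the spread between 2 adult libraries, which may be technical, and the lone E12.5 library is assumed to vary like them. The adult pair differed by at most 0.66 (Slc25a36) and by a median of 0.11 over the carriers. Upper-quartile scaling moved the median of all genes to 0.02 and gave 4316 genes that rose and 4159 that fell, with 14 and 9 among the carriers. All 11 carriers that rose, and 9 of the 14 that fell, passed under each of 3 other scalings. The exceptions were Slc25a14, Slc25a15, Slc25a22, Slc25a26 and Slc25a43. Of these, Slc25a14 under upper-quartile and median-of-ratios scaling, and Slc25a43 under upper-quartile scaling, were below the 1 FPKM filter and not tested.

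**Figure D2:**
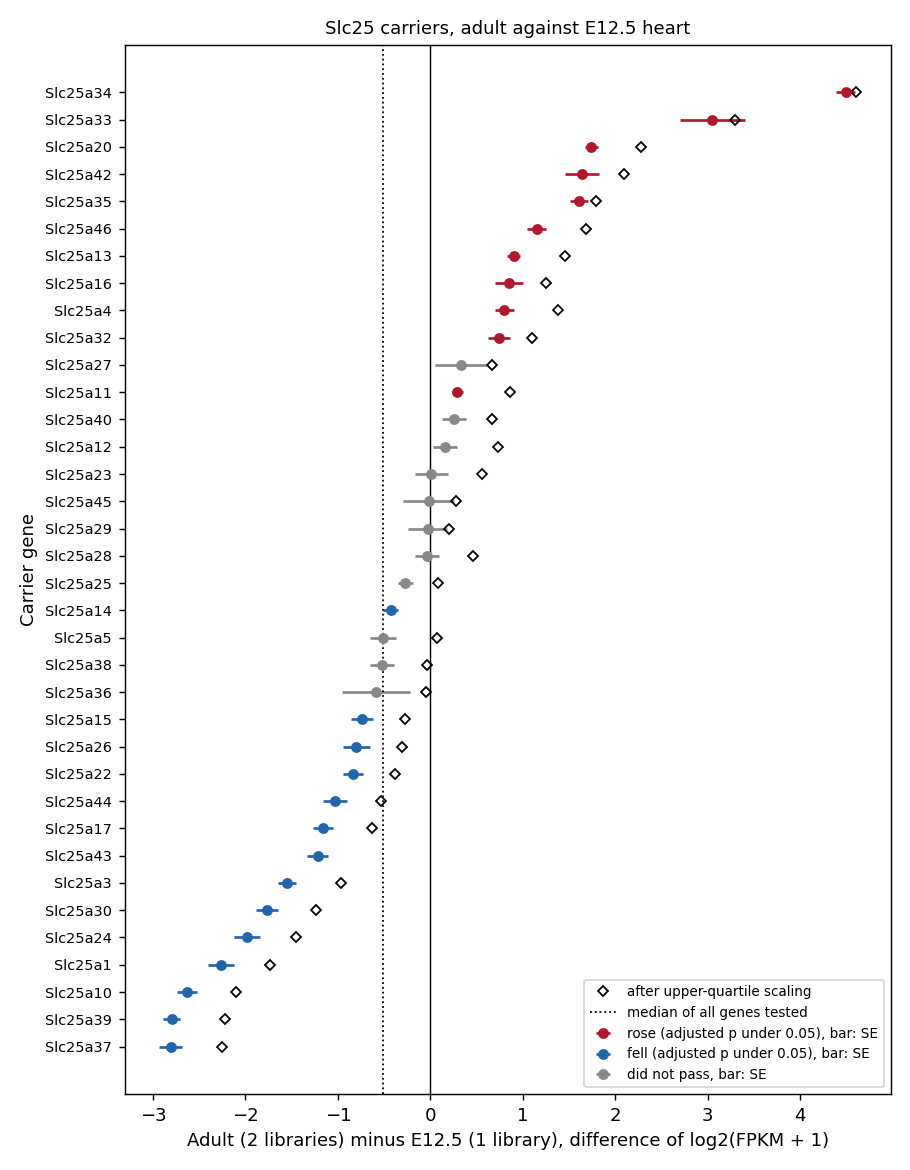
Adult minus E12.5 difference of log2(FPKM + 1) for 36 of the carriers tested, with the standard error as a bar and the call as colour, and with the difference after upper-quartile scaling as an open diamond. Slc25a34 (4.49) and Slc25a33 (3.05) lie farthest to the right and Slc25a37 (-2.81), Slc25a39 (-2.80) and Slc25a10 (-2.63) farthest to the left, and the dotted line is the median of all genes tested, -0.51.

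Among the ADP/ATP carriers, which return ATP to the cytosol, the muscle form Slc25a4 rose and the widely expressed Slc25a5 did not pass the test. Slc25a4 stood at 11.88 and 11.85 in adult, 11.07 at E12.5, 10.81 in the KO-labelled library, 12.19 in Sham and 12.23 in Banding. Every adult and operated library lay above both embryonic ones. Its adult excess was 0.80 (SE 0.10, limma adjusted p = 0.0159), and the call was lost when no filter on low values was used. Slc25a5 stood at 6.99 and 6.77 in adult, 7.39 at E12.5, 7.09 in the KO-labelled library, 5.66 in Sham and 5.93 in Banding. On the deposited scale the E12.5 libraries were the highest and the operated hearts the lowest, an order that changed in part under upper-quartile scaling. Adult minus E12.5 was -0.51 (SE 0.14, limma adjusted p = 0.0594), and it turned to above 0 under upper-quartile scaling. With a filter of 5 FPKM, Slc25a5 passed as a fall. Within the ADP/ATP set, Slc25a4 held 96.8% (exact 95% interval 96.6 to 96.9) and 97.1% (97.0 to 97.3) of FPKM in adult, 92.7% (92.5 to 93.0) at E12.5, 92.9% (92.7 to 93.2) in the KO-labelled library, 98.9% (98.9 to 99.0) in Sham and 98.8% (98.7 to 98.8) in Banding. The embryonic share of the other form, Slc25a5, was 7.22% and 6.99%, against 3.24% and 2.85% in adult. Slc25a31, the form known from testis, had 1 to 51 reads in a library. Genomes hold processed copies of Slc25a3, Slc25a4 and Slc25a5, and reads from these cannot be assigned with certainty.

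The phosphate carrier Slc25a3, which supplies ATP synthase with phosphate, fell where Slc25a4 rose. It stood at 7.63 and 7.49 in adult, 9.11 at E12.5, 8.84 in the KO-labelled library, 6.16 in Sham and 6.11 in Banding. Both embryonic libraries were above all others, and the operated hearts were lowest. The difference was -1.55 (SE 0.10, limma adjusted p = 0.00609). ATP synthase itself, from a list of 15 subunits chosen with earlier results known, had 9 that rose and 5 that fell, where 23.4% and 48.4% of all genes tested did, with Atp5h at 3.46 and Atp5d at -3.97, and Atp5e was lost under another scaling. The subunits did not share a direction.

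The ATP-Mg/phosphate carriers adjust the matrix pool of adenine nucleotides under control of calcium. Slc25a24 fell and Slc25a23 did not pass. Slc25a24 stood at 1.59 and 1.73 in adult, 3.65 at E12.5, 3.72 in the KO-labelled library, 0.83 in Sham and 0.95 in Banding, with no overlap between embryonic and other libraries. The difference was -1.98 (SE 0.14, limma adjusted p = 0.00677). Slc25a23 stood at 4.85 and 4.54 in adult, 4.69 at E12.5, 4.57 in the KO-labelled library, 3.25 in Sham and 3.56 in Banding. Its E12.5 value lay between the adult pair, and adult minus E12.5 was 0.01 (SE 0.18, limma adjusted p = 0.976). Within this set of carriers Slc25a24 took 30.3% of FPKM (exact 95% interval 28.6 to 32.1) at E12.5 and 32.4% (30.5 to 34.4) in the KO-labelled library, against 6.48% (5.21 to 7.94) and 8.98% (7.34 to 10.8) in adult, 7.81% (5.40 to 10.8) in Sham and 7.30% (5.36 to 9.68) in Banding. The adult and operated libraries had overlapping intervals and the 2 embryonic ones lay far above them.

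The aspartate/glutamate carriers Slc25a12 (aralar) and Slc25a13 (citrin), which drive the malate-aspartate shuttle, were both abundant. Slc25a13 stood at 5.45 and 5.42 in adult, 4.53 at E12.5, 4.81 in the KO-labelled library, 3.84 in Sham and 3.68 in Banding. It rose by 0.90 (SE 0.07, limma adjusted p = 0.00739), with adult highest. On the deposited scale the operated hearts were lowest, an order that changed under the other scalings. Slc25a12 stood at 5.88 and 5.68 in adult, 5.62 at E12.5, 5.52 in the KO-labelled library, 3.89 in Sham and 3.83 in Banding. Its adult and E12.5 values were close, with a difference of 0.16 (SE 0.13, limma adjusted p = 0.347), and it passed under upper-quartile and median-of-ratios scaling. The share of Slc25a12 in the pair was 68.5% (exact 95% interval 67.2 to 69.9) at E12.5 and 57.6% (56.0 to 59.2) and 54.5% (52.8 to 56.2) in adult. It was 62.4% (60.9 to 63.9) in the KO-labelled library, 50.9% (47.8 to 54.1) in Sham and 52.9% (49.8 to 55.9) in Banding, so the 2 embryonic libraries also differed beyond counting error. Slc25a11, the oxoglutarate/malate carrier of the same shuttle, stood at 6.55 and 6.53 in adult, 6.26 at E12.5, 6.21 in the KO-labelled library and 5.25 in both operated hearts. Its rise was small, 0.29 (SE 0.06, limma adjusted p = 0.0388), and was lost without the mean-variance trend. The shuttle's 4 enzymes, Got1 (1.63), Got2 (0.76), Mdh1 (0.67) and Mdh2 (0.40), all rose, where 23.4% of all genes tested did.

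The citrate and dicarboxylate carriers, which supply carbon to the cytosol for lipid synthesis, fell steeply. Slc25a1, the citrate carrier, stood at 1.06 and 1.23 in adult, 3.41 at E12.5, 3.33 in the KO-labelled library, 1.52 in Sham and 1.43 in Banding. Slc25a10, the dicarboxylate carrier, stood at 0.90 and 0.93 in adult, 3.55 at E12.5, 3.75 in the KO-labelled library, 0.77 in Sham and 0.76 in Banding. For both, the embryonic libraries lay well above the other 4, which were all low. Their differences were -2.26 (SE 0.14, limma adjusted p = 0.00615) and -2.63 (SE 0.11, limma adjusted p = 0.00427). Slc25a10 had 12.4% (exact 95% interval 11.6 to 13.2) of the FPKM it shares with Slc25a11 at E12.5 and 0.929% (0.675 to 1.25) and 0.983% (0.717 to 1.32) in adult. Of 4 genes listed for citrate use and the steps after it, Acly (-2.02) and Fasn (-2.40) fell, Acacb (1.4) rose and Acaca did not pass. Of all genes tested, 48.4% fell and 23.4% rose.

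The acylcarnitine carrier Slc25a20, through which long-chain fatty acids enter the matrix, rose. It stood at 5.98 and 5.97 in adult, 4.24 at E12.5, 4.33 in the KO-labelled library, 3.93 in Sham and 3.84 in Banding. Adult was highest. On the deposited scale both operated hearts were below the embryonic libraries, and under each of the other scalings they were above them. The difference was 1.74 (SE 0.07, limma adjusted p = 0.00403). Of 5 carnitine enzymes, Cpt2 (1.38) and Crat (1.21) rose, Cpt1b (-2.13) and Cpt1c (-1.54) fell and Cpt1a did not pass, where 23.4% of all genes tested rose and 48.4% fell. Cpt1b, the muscle form, was listed at only 0.87 and 0.22 in adult. Which gene model its reads were counted on is not stated, so its level and its fall are uncertain. The mitochondrial pyruvate carrier, which is no Slc25 protein and is listed as Brp44l and Brp44, rose by 3.52 and 1.77.

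Among carriers of iron, of haem precursors and of glutathione, Slc25a37 and Slc25a39 fell, and the others did not pass. Mitoferrin 1 (Slc25a37), which imports iron in red cell precursors, stood at 1.43 and 1.48 in adult, 4.26 at E12.5, 4.85 in the KO-labelled library, 2.30 in Sham and 2.19 in Banding. The KO-labelled library was highest and adult lowest. The difference of adult from E12.5 was -2.81 (SE 0.12, limma adjusted p = 0.00436). Slc25a39, a mitochondrial glutathione importer, stood at 4.13 and 4.23 in adult, 6.98 at E12.5, 6.91 in the KO-labelled library, 3.73 in Sham and 3.86 in Banding. Here too the embryonic libraries did not overlap the rest, and the difference was -2.80 (SE 0.09, limma adjusted p = 0.00398). Mitoferrin 2 (Slc25a28), the widely expressed form, gave -0.04 (SE 0.13, limma adjusted p = 0.811), the glycine carrier Slc25a38 gave -0.52 (adjusted p = 0.0538) and Slc25a40 gave 0.26 (adjusted p = 0.175). Slc25a40 rose under upper-quartile (0.67, limma adjusted p = 0.0259) and median-of-ratios scaling (0.62, limma adjusted p = 0.0303). Slc25a38 fell with a filter of 5 FPKM (limma adjusted p = 0.0322) and without the mean-variance trend (limma adjusted p = 0.0361). Mitoferrin 1 was 71.6% (exact 95% interval 68.7 to 74.4) of mitoferrin FPKM at E12.5 and 83.6% (81.1 to 85.8) in the KO-labelled library, against 18.7% (14.8 to 23.1) and 21.2% (16.9 to 26.2) in adult, 30.6% (26.3 to 35.3) in Sham and 35.2% (30.4 to 40.4) in Banding. Summed FPKM of 7 erythroid markers, all matched, moved the same way, at 0.521 and 1.36 in adult, 21305 at E12.5, 64778 in the KO-labelled library, 7.13 in Sham and 6.48 in Banding. The markers were Hbb-y, Hba-x, Hbb-bh1, Alas2, Klf1, Gata1 and Slc4a1. Of them 6 and 5 were at 0 in the adult libraries, 4 in Banding, and 0 in Sham and the embryonic ones. Outside the embryonic libraries the sum was mainly Alas2, at 0.60 and 1.21 in adult, 2.80 in Sham and 2.78 in Banding. The part of red cell precursors in the mitoferrin values was not tested. Among 11 genes of haem and iron-sulphur synthesis, 4 rose, with Iscu at 3.11 and Alas1 at 1.56, and 5 fell, with the erythroid Alas2 at -5.66, of which Glrx5 was lost under another scaling. Over all genes tested, 23.4% rose and 48.4% fell.

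Of the cofactor carriers, 3 rose and 2 fell, where 23.4% and 48.4% of all genes tested did. Slc25a42, the coenzyme A carrier, stood at 4.15 and 3.86 in adult, 2.36 at E12.5, 2.41 in the KO-labelled library, 3.20 in Sham and 2.56 in Banding. On the deposited scale it was highest in adult, and its difference was 1.64 (SE 0.18, limma adjusted p = 0.0123). Slc25a16, which is also tied to coenzyme A in mitochondria, stood at 2.62 and 2.80 in adult, 1.85 in both embryonic libraries, 0.82 in Sham and 0.81 in Banding. It rose by 0.85 (SE 0.15, limma adjusted p = 0.0275), a call that was lost with no filter on low values. The peroxisomal Slc25a17 stood at 2.65 and 2.71 in adult, 3.84 at E12.5, 3.65 in the KO-labelled library, 2.03 in Sham and 2.17 in Banding. It fell by 1.16 (SE 0.11, limma adjusted p = 0.00958), with the embryonic libraries highest. The folate and FAD carrier Slc25a32 rose by 0.74 and the S-adenosylmethionine carrier Slc25a26 differed by -0.80 (limma adjusted p = 0.0217 and 0.0300). The call of Slc25a26 was lost under upper-quartile and median-of-ratios scaling. Of 5 enzymes of the mitochondrial folate pathway, 4 fell, with Mthfd2 at -3.02, and 0 rose, where 48.4% of all genes tested fell and 23.4% rose.

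Of the 2 pyrimidine nucleotide carriers, which bring precursors for mitochondrial DNA and RNA into the matrix, Slc25a33 rose and Slc25a36 did not pass. Slc25a33 stood at 3.67 and 4.29 in adult, 0.93 at E12.5, 0.88 in the KO-labelled library, 3.09 in Sham and 2.99 in Banding. The 4 adult and operated libraries all lay above the embryonic ones, and the adult pair differed by 0.62. The rise was 3.05 (SE 0.35, limma adjusted p = 0.0132). Slc25a36 gave -0.59 (SE 0.37, limma adjusted p = 0.251). The share of Slc25a33 in the pair was 5.67% (exact 95% interval 4.02 to 7.74) at E12.5 and 7.89% (5.34 to 11.1) in the KO-labelled library, against 48.5% (44.8 to 52.3) and 71.2% (67.9 to 74.2) in adult, 57.2% (52.0 to 62.1) in Sham and 54.6% (49.7 to 59.4) in Banding. The adult libraries differed in this share beyond counting error, and both were far above the embryonic ones.

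**Figure D3:**
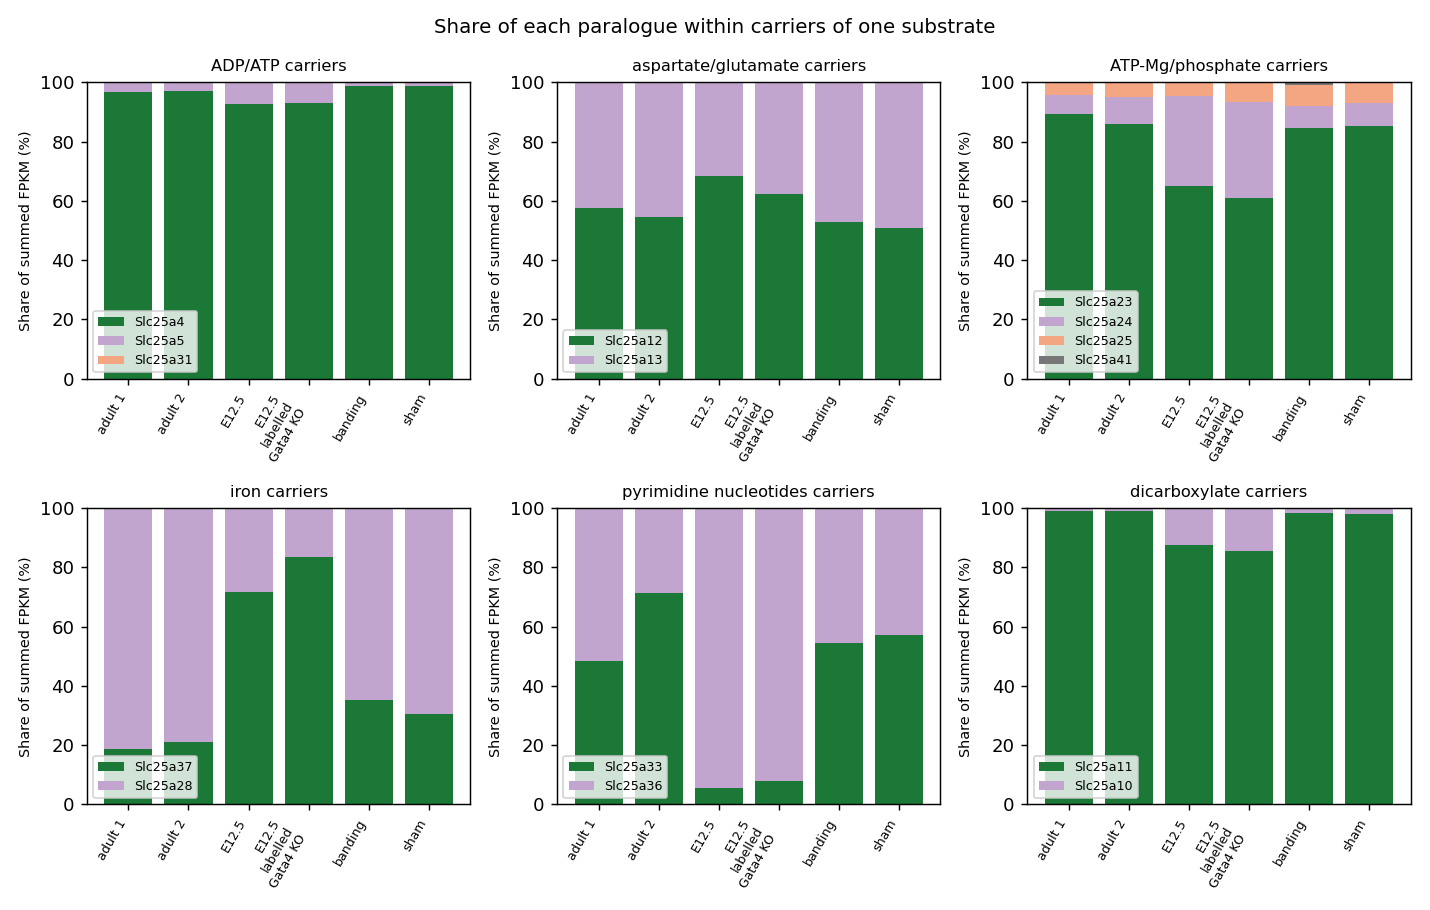
Share of each carrier in the summed FPKM of the carriers of 1 substrate (stacked bars, percent) in each of the 6 libraries, for 6 substrates. The embryonic columns stand apart in the ATP-Mg/phosphate, iron and pyrimidine nucleotide panels, where Slc25a24 reaches 30.3% and 32.4%, Slc25a37 71.6% and 83.6%, and Slc25a33 only 5.67% and 7.89%.

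Slc25a34, whose substrate in mammals is not settled, had the largest difference of any carrier tested. It stood at 4.92 and 4.85 in adult, 0.40 at E12.5, 0.44 in the KO-labelled library, 4.48 in Sham and 4.03 in Banding. The embryonic values rest on 18 and 17 reads against 576 to 991 reads in the other libraries. In FPKM this is 29.3 and 27.8 in adult and 0.319 at E12.5. The rise was 4.49 (SE 0.10, limma adjusted p = 0.00398), on a log2 scale with 1 added, which understates changes of genes this low. The related Slc25a35 rose by 1.61 (SE 0.10, limma adjusted p = 0.00623), staying below 5 FPKM everywhere, and its gene span overlaps that of Rangrf in RefSeq. Slc25a43, also of unsettled substrate, differed by -1.22 and had 2 and 0 reads in adult against 35 at E12.5. Outside the inner membrane, Slc25a46, an outer membrane protein of mitochondrial dynamics, stood at 4.91 and 4.79 in adult, 3.70 at E12.5, 3.61 in the KO-labelled library, 1.93 in Sham and 2.08 in Banding. It rose by 1.15 (SE 0.10, limma adjusted p = 0.00848), and the operated hearts were lowest.

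Of the other roles, the relatives of uncoupling proteins known from brain had 2 that fell of 3, where 48.4% of all genes tested fell, and the call of Slc25a14 was lost with a pseudocount of 0.1 and with no filter on low values. Slc25a30 stood at 2.01 and 2.05 in adult, 3.80 at E12.5, 3.67 in the KO-labelled library, 1.01 in Sham and 0.97 in Banding, and it fell by 1.77 (SE 0.12, limma adjusted p = 0.00627). Both embryonic libraries lay above the rest. The branched-chain amino acid carrier Slc25a44 stood at 2.04 and 2.13 in adult, 3.12 at E12.5, 3.21 in the KO-labelled library, 1.5 in Sham and 1.64 in Banding, and fell by 1.03 (SE 0.13, limma adjusted p = 0.0145). Again no embryonic value overlapped the others. The ornithine carrier Slc25a15 differed by -0.74, the glutamate carrier Slc25a22 by -0.84 and Slc25a14 by -0.43 (limma adjusted p = 0.0222, 0.0168 and 0.0305). The second glutamate carrier, Slc25a18, was under the filter, with 4 to 12 reads in the adult and embryonic libraries and 42 and 37 in Banding and Sham. The remaining untested members were Slc25a2, Slc25a21, Slc25a31, Slc25a41, Slc25a47 and Slc25a48. Spans of Slc25a11, Slc25a21, Slc25a25 and Slc25a26 each overlap another listed gene in RefSeq as well, so their counts are uncertain, since the sources used here do not state whether strand was used in counting.

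Carriers are inserted into the inner membrane by the TIM22 route. Of 8 protein import genes listed with this route, not all of them particular to it, 7 fell and 1 rose. Of all genes tested, 48.4% fell and 23.4% rose. Of the 7, 3 fell in every scaling tried. Among them were the small chaperones Timm13 (-5.04), Timm9 (-2.54) and Timm8b (-2.10), while Timm8a1 rose by 3.54. These 3 chaperones and Timm8a1 passed under each of the 3 other scalings, and Timm10, Timm22, Tomm20 and Tomm70a did not. Of the voltage-dependent channels of the outer membrane, Vdac3 rose by 2.55 and Vdac1 and Vdac2 did not pass. Uncoupling protein genes, which belong to the same protein family under other symbols, split, with Ucp3 rising by 4.18 and Ucp2 falling by 1.22, a call lost under another scaling. The glycerol phosphate shuttle enzyme Gpd1 rose by 2.76.

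In the E12.5 library labelled Gata4 KO, no carrier of 23 measured differed 2-fold from the E12.5 library, where 1.85% of 8218 genes were higher and 1.01% lower. With 1 library on each side there is no replicate check and no p-value, and intervals cover counting error only. Log2 differences of the 22 carriers described ran from -0.58 to 0.58, with a median of -0.08, against -0.05 for all genes measured. Of these 22, 13 differed by more than the same gene did between the adult libraries. The share over all genes was not computed, so this count shows nothing particular to carriers. Slc25a37 was highest, with an FPKM ratio of 1.53 (exact 95% interval 1.43 to 1.63), and Slc25a26 stood at 1.4 (1.18 to 1.67). Slc25a36 was at 0.646 (0.580 to 0.718), a gene that also varied most between the adult libraries. The major carriers Slc25a4, at 0.836 (0.825 to 0.848), and Slc25a3, at 0.826 (0.807 to 0.845), were both lower. Summed cardiomyocyte markers were lower too and erythroid markers higher in this library, by the values above. Of the cardiomyocyte markers, Tnnt2 (11.96 at E12.5, 11.28 in the KO-labelled library), Actn2 and Ryr2 were lower. Myh6 (7.72 and 7.76) and Ttn (4.73 and 4.82) were not. Summed FPKM of 4 smooth muscle markers (Acta2, Myh11, Tagln and Cnn1) was 518 at E12.5 and 1089 in the KO-labelled library, and that of 5 fibroblast markers was 85.3 and 171, with none at 0. Acta2 (8.56 at E12.5, 9.83 in the KO-labelled library), Myh11 and Tagln were higher, and Cnn1 (6.75 and 6.71) was not. The part of these cell types in the ratios was not tested.

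Between Banding and Sham, no carrier of 15 measured differed 2-fold, where 3.19% of 5108 genes were higher in Banding and 1.62% lower. Log2 differences of the 14 carriers described ran from -0.64 to 0.30 with a median of -0.06, against 0.06 for all genes measured. Of these 14, 8 differed by more than the same gene did between the adult libraries, and here too the share over all genes was not computed. Slc25a42 stood at 4.90 FPKM in Banding and 8.22 in Sham, a ratio of 0.597 (exact 95% interval 0.50 to 0.712), and its log2 difference of -0.64 compares with a gap of 0.29 in the adult pair. The ratio of Slc25a34 was 0.717 (0.641 to 0.802), a log2 difference of -0.46 against an adult gap of 0.07. The coenzyme A carrier and Slc25a34 were thus lower in Banding beyond counting error, as was Slc25a28 at 0.737 (0.584 to 0.928). Slc25a23 was higher at 1.26 (1.10 to 1.45) and Slc25a5 at 1.21 (1.10 to 1.33), and the ratio of Slc25a4 was 1.03 (1.02 to 1.04). The log2 difference of Slc25a4, 0.04, turned to -0.01 under median-of-ratios scaling and to -0.04 without the 50 highest genes. The interval held 1 for 8 of the 15, and the share over all genes was not computed, so this count shows nothing particular to carriers. Ucp3, of the uncoupling proteins, did pass the rule of size, with log2 levels of 2.14 in Banding and 4.20 in Sham. Summed FPKM of 5 fibroblast markers (Col1a1, Col1a2, Pdgfra, Dcn and Lum) was 648 in Banding, 254 in Sham and 88.8 and 111 in adult, with none at 0, and the part of fibroblasts in the carrier ratios was not tested.

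**Figure D4:**
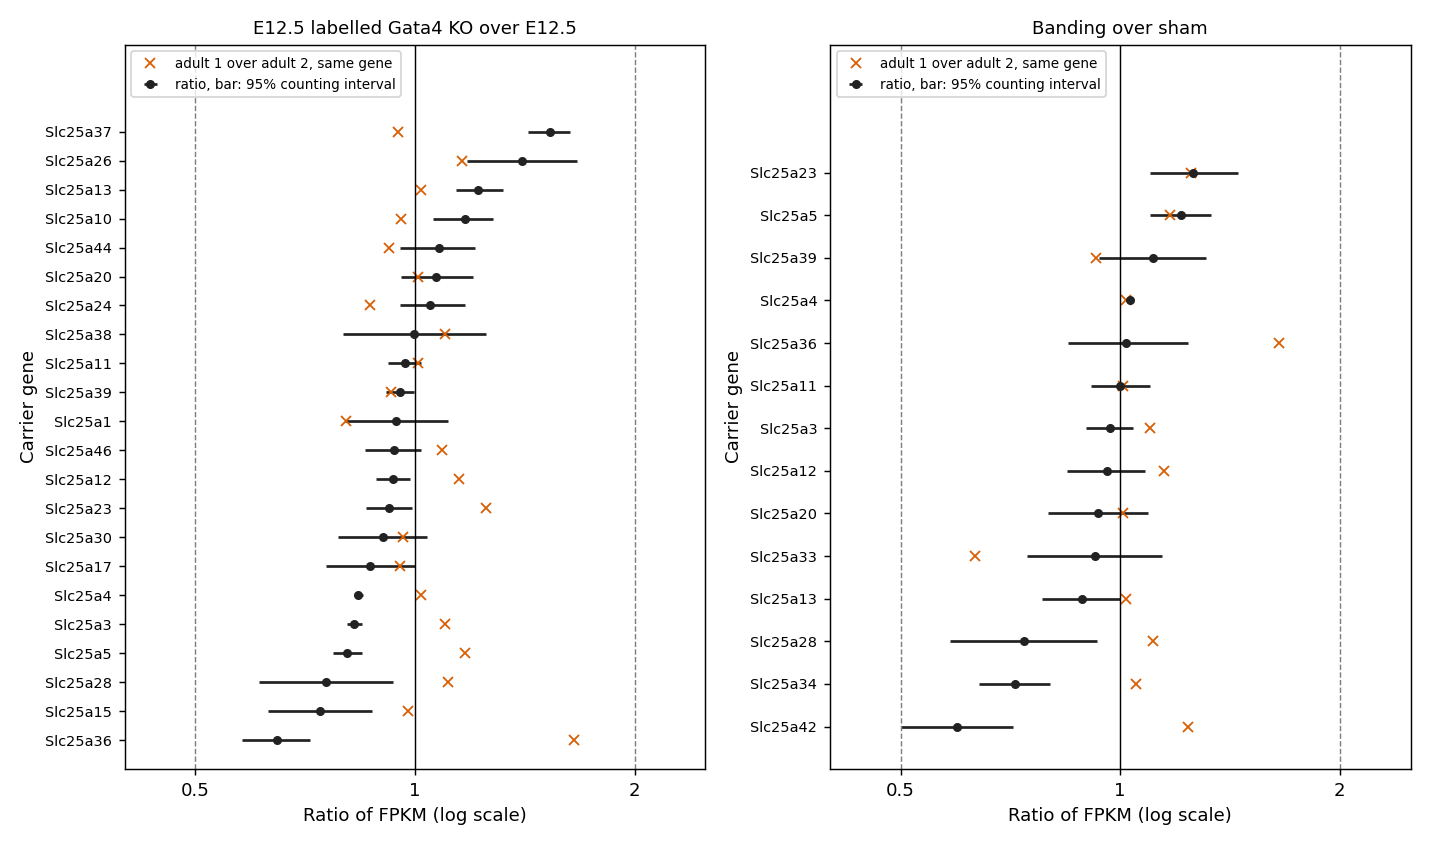
FPKM ratios of the carriers measured (log axis), for the KO-labelled library over E12.5 (left, 22 carriers) and Banding over Sham (right, 14 carriers), with exact 95% counting intervals as bars and the ratio of the adult libraries for the same gene as a cross. No point passes the dashed lines at 0.5 and 2, and Slc25a36 (0.646) on the left and Slc25a42 (0.597) on the right lie lowest.

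How Sham compared with adult depended on the scaling. Of 18 carriers measured, 10 were lower in Sham by the rule of size and 0 higher, where 43.7% of 6671 genes were lower and 6.49% higher. Lower and higher carriers numbered 5 and 3 under upper-quartile scaling, 6 and 3 under median-of-ratios scaling, and 3 and 5 without the 50 highest genes. Over all genes the counts were 1515 and 1337, 1719 and 1108, and 1124 and 1592, in the same order. The median difference was -1.05 for the carriers and -0.74 for all genes measured. Slc25a46 (-2.91), Slc25a20 (-2.04) and Slc25a12 (-1.89) differed most among those lower under all 3 other scalings as well. The other 7 were Slc25a3, Slc25a5, Slc25a11, Slc25a13, Slc25a16, Slc25a23 and Slc25a33, and each was lost under at least 1 scaling. Slc25a4 was higher by 0.32, 4659 FPKM in Sham against 3773 and 3683 in adult, and stood 2-fold higher when reads of the 50 highest genes were left out of the scaling. The lower share of reads on listed genes in the operated hearts goes with this comparison, and its part was not tested. Nor do the labels say that adult and operated hearts were handled alike.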

How the data were processed

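Expression was analysed in 6 RNA-seq libraries. The files deposited by the authors hold 1 log2 value per gene symbol, log2(FPKM + 1), a scale read from the values. The submitters' processing notes list BWA 0.5.9, TopHat 1.4, CASAVA 1.8.2, MACS 1.4 and HTSeq 0.5.3, and genome build mm9. The sources used here do not give which of them made these files or whether strand was used. The files hold no coordinates, and promoter coordinates come from RefSeq GRCm38.p6.

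After undoing the log, all 98043 values above 0 came out as whole reads within 0.001 of a read (100%), which gave the mapped totals. Adult and E12.5 were compared with limma 3.58.1 in R 4.3.3 on the deposited values (at least 1 FPKM in at least 1 of 3 libraries, mean-variance trend, Benjamini-Hochberg adjustment over 12658 genes at 0.05), with 1 residual and 1.535 prior degrees of freedom. A rule of size took a 2-fold difference where the higher group reached 5 FPKM. Ratios and shares carry exact 95% binomial intervals (Clopper-Pearson, conditional on the reads summed, scipy 1.17.1), which cover counting error only.

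Members, roles and companion lists were chosen with earlier results of these data known. Carriers past the test and the rule of size, lower in Sham by size, or among the 3 highest are given in every library, and others by difference or count. A carrier and 2 other genes are not reported here by name or in the plots; the carrier stays in the counts. Of the motifs, those of estrogen-related receptors and NRF1 were set at the start, and the other 3 were added after the data were seen. Alternatives were 3 scalings (upper quartile, median of ratios, without the 50 highest genes), a pseudocount of 0.1 in place of 1, other filters, no trend, a 1.5-fold rule, the KO-labelled library in place of E12.5, and leaving out an adult library. On simulated data for adult versus E12.5 (10906 genes, noise of 7.7% as in the adult pair), limma recovered 66 of 67 genes changed 2-fold, 67 of 67 changed 3-fold and 66 of 66 changed 8-fold, and called 21 unchanged genes. The simulated E12.5 library was given the spread of the adult pair, and far fewer genes changed than were called in the data. It therefore cannot check whether the real E12.5 library varies like the adult pair.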

Additional observations from a re-analysis of the deposited data

How the results depend on the processing

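For adult against E12.5, the number of carriers that rose was 9 to 14 and the number that fell 9 to 15 under the alternatives tried, with 9 falling under upper-quartile scaling in place of 14. Over all genes, 2426 to 4316 rose and 4159 to 6804 fell, of 8900 to 18024 tested. The differences of Slc25a5, Slc25a25, Slc25a28, Slc25a29 and Slc25a45, none past the test in the main setting, turned sign with the scaling. Slc25a5 did pass as a fall with a filter of 5 FPKM, and Slc25a25 with the KO-labelled library in place of E12.5. With the KO-labelled library in place of E12.5, all 11 that rose and 12 of the 14 that fell passed. Slc25a15 did not pass, and Slc25a43 was below the filter of 1 FPKM and was not tested. In that setting 12 carriers rose and 14 fell in all, where 2981 and 6149 of 12775 genes did. Leaving out either adult library gave 5 to 6 carriers higher and 9 to 11 lower by size against E12.5, and 0 higher and 10 to 11 lower in Sham against adult. Over all genes, 1582 to 1678 were then higher and 3609 to 3660 lower against E12.5. In Sham against adult, 398 to 449 were higher and 2889 to 2969 lower. With 1 adult library limma has no residual degree of freedom and was not run.

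At 1.5-fold, 1 carrier was higher (Slc25a37) and 2 lower (one being Slc25a36) in the KO-labelled library than at E12.5, and 1 (Slc25a42) was lower in Banding than in Sham. Of all 8218 genes measured, 470 were higher and 379 lower in the KO-labelled library. Of 5108 genes, 484 were higher and 264 lower in Banding. Sham against adult depended most on the setting. Carriers higher in Sham numbered 3 under upper-quartile scaling, 3 under median-of-ratios scaling, 5 without the 50 highest genes and 3 with a level of 1 FPKM, in place of 0. Those lower numbered 5, 6, 3 and 16 in the same order, in place of 10. Over all genes, 1337, 1108, 1592 and 1263 were higher, in place of 433. Those lower were 1515, 1719, 1124 and 4005, in place of 2915. The cause of these changes was not tested. No paired analysis was possible because the RNA-seq groups compared share fewer than 2 replicate numbers. Carriers of few reads, such as Slc25a18 and Slc25a43, are limited by depth.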

Other observations

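Some members of the family are listed under older symbols, outside the rule that chose the carriers. Mcart1, now Slc25a51 and known as a mitochondrial NAD+ carrier, stood at 3.50 and 3.54 in adult, 4.32 at E12.5, 4.27 in the KO-labelled library, 2.01 in Sham and 2.19 in Banding on the log2(FPKM + 1) scale. Its embryonic values were highest and those of the operated hearts lowest. Mcart6, now Slc25a53, had 3 to 36 reads in a library, with 36 at E12.5 and 29 in the KO-labelled library. 4930443G12Rik, now Slc25a54, had 0 reads in all 6.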
